A study of Homo sapiens with 9 samples.

Results

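In SET2, 9 genes were examined for the distance of their RNA between 2 *DYRK1A* knockout (KO) clones, out of 60662 genes measured by bulk RNA-seq. They were *WASF3*, *GUCY1B1*, *SPOCK3*, *AC005307.1* and *AC005394.2*, whose RNA was almost lost in clone 11H1, and *CTSZ*, *NTRK3*, *ARAP3* and *AC093515.1*, whose RNA was almost lost in clone 14B5. SET2 is a megakaryoblastic leukemia line with a *JAK2* mutation, derived from a myeloproliferative neoplasm that had become acute leukemia. Libraries came from WT cells and from the KO clones 11H1 and 14B5 (n = 3 libraries each), with no drug treatment in any group. Both clones received the same Cas9 ribonucleoprotein, with 1 guide against *DYRK1A*, were each grown from 1 sorted cell and were kept because every indel found was out of frame. WT was the parental population, so the 9 libraries include no clone of an unedited cell. The libraries of a clone share their founder cell and nothing says that they came from separate cultures, so p values measure the spread between these libraries, which may be technical, and concern these cells alone.

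The 9 genes were chosen because their RNA lay furthest apart between 11H1 and 14B5, so the distance between the clones is given as a description without a test. They were selected on the fitted difference between the clones, as the 5 furthest apart in each direction among 9871 genes. Those genes had a mean over all 9 libraries of at least 1 CPM (counts per 1000000 after TMM scaling of library sizes). Their clone libraries also did not overlap, a separation that 35.1% of the genes tested showed with 11H1 lower and 33.6% with 11H1 higher. The other gene among those 10 was *MEG3*, a maternally expressed long non-coding RNA, which had a log2 fold change (log2FC) of 6.82 for 11H1 over 14B5. Just inside this limit lay *SPOCK3* (log2FC −4.88) on the side lower in 11H1 and *ARAP3* (5.35) on the other. Just outside it lay *AC073365.1* (−4.33) and *ITLN2* (5.12). Values for each clone against WT come from edgeR's quasi-likelihood F test with Benjamini-Hochberg adjustment over all genes tested and a threshold of 0.05. The difference that chose the 9 genes used the clone libraries alone, so at least 1 clone had to differ from WT for most of them. WT libraries entered through the 1 CPM limit. The clone libraries of *WASF3*, *SPOCK3*, *ARAP3* and *AC093515.1* averaged under 1 CPM. These genes reached the limit only through WT (means of 2.39, 2.39, 7.05 and 3.06 CPM), so a WT level above the mean of the clones followed from the choice. The p values of the 9 genes against WT therefore describe their position and do not support the choice.

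The targeted gene kept its RNA. In WT libraries 1 to 3 *DYRK1A* stood at 197, 196 and 218 CPM, in 11H1 at 188, 191 and 192 CPM, and in 14B5 at 191, 182 and 174 CPM. Against WT it had a log2FC of −0.09 in 11H1 (adjusted p = 0.131, edgeR) and −0.17 in 14B5 (adjusted p = 0.0278, edgeR). Counts do not show the reading frame, so this level cannot check whether the protein was lost.

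The 9 genes have no single function in common. Among the protein-coding genes, *GUCY1B1* encodes the heme-binding beta subunit of soluble guanylate cyclase, which makes cGMP when nitric oxide binds it and which restrains platelet activation. *WASF3* encodes WAVE3, a scaffold that activates the Arp2/3 complex and so drives branched actin at the cell edge. *SPOCK3* encodes testican-3, a secreted proteoglycan of the SPARC family. *CTSZ* encodes cathepsin Z, a lysosomal cysteine carboxypeptidase. *ARAP3* encodes a GTPase-activating protein for ARF6 and RHOA that binds the lipid product of PI3-kinase. *NTRK3* encodes TrkC, the receptor tyrosine kinase for neurotrophin-3, known in leukemia as the fusion partner of *ETV6*. The other 3 are long non-coding RNAs (lncRNAs) without a role given here.

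By GENCODE v29 on GRCh38 the genes lay on 7 chromosomes. *GUCY1B1* (ENSG00000061918.13) ran from chr4:155758992-155807591 on the plus strand and *SPOCK3* (ENSG00000196104.11) from chr4:166733384-167234796 on the minus strand, 10925792 bases apart. *WASF3* (ENSG00000132970.13) lay at chr13:26557703-26688948 on the plus strand, *CTSZ* (ENSG00000101160.14) at chr20:58995185-59007247, *ARAP3* (ENSG00000120318.16) at chr5:141653401-141682221 and *NTRK3* (ENSG00000140538.16) at chr15:87859751-88256768, the last 3 on the minus strand. *AC093515.1* (ENSG00000260289.2) lay at chr16:7888489-7894395 on the minus strand. *AC005307.1* (ENSG00000260725.1) at chr19:28418483-28429490 and *AC005394.2* (ENSG00000283403.1) at chr19:28435388-28727680 were neighbours on the minus strand of chromosome 19, with 5897 bases between them.

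The 250 bases before the RefSeq transcription start are shown for the pairs of genes that were almost lost together in a clone, *WASF3* and *GUCY1B1* in 11H1 and *CTSZ* and *ARAP3* in 14B5. All are from GRCh38.p14, 5′ to 3′ on the strand of the gene, with each CG dinucleotide in capitals. The windows are chr13:26557433-26557682 (plus), chr4:155758771-155759020 (plus), chr20:59007255-59007504 (minus) and chr5:141682231-141682480 (minus).
WASF3: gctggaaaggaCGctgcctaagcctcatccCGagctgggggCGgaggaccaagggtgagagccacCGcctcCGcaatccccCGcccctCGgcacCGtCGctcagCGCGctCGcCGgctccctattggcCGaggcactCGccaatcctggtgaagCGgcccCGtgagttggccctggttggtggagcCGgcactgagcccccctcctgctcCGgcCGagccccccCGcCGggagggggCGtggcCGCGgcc
GUCY1B1: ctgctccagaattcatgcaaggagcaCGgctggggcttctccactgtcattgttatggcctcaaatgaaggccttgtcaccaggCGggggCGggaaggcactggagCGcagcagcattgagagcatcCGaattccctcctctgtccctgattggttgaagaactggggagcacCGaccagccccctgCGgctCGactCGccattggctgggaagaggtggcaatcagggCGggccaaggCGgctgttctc
CTSZ: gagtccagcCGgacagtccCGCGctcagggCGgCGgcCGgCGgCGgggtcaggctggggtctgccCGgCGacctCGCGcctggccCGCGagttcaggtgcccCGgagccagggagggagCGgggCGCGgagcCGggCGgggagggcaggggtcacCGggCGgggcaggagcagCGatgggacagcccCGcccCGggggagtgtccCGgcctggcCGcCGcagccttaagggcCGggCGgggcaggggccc
ARAP3: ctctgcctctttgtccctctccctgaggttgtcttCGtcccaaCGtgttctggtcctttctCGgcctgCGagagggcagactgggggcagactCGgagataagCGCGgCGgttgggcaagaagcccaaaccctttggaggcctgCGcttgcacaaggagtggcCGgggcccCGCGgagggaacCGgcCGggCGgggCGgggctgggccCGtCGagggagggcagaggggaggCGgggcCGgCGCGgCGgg
The *WASF3* window held 25 CG dinucleotides, *CTSZ* 30, *ARAP3* 23 and *GUCY1B1* 11. Over 35116 such windows of 27305 genes the median was 11 and the upper quartile 23, so the first 3 windows reached the upper quartile and *GUCY1B1* the median. RefSeq windows matched 6 of the 9 genes, with 9 starts in all, of which 5 reached the upper quartile. Among the starts not shown, another of *WASF3* held 28, that of *NTRK3* 23 and those of *SPOCK3* 21, 20 and 10. A GATA-type motif (AGATAA on either strand) was found in 1 of the 9 starts, that of *ARAP3*, and in 9.17% of all windows. A STAT-type motif (TTCNNNGAA, which reads the same on both strands) was found in none of the 9 and in 6.57% of all windows, and a TATA box (TATAAA on either strand) in none of the 9 and in 10.7%. Methylation, accessibility and factor binding were not measured in these libraries.

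Each of the 9 genes was separated from WT in the clone where it was almost lost, and 7 were also lower in the other clone. For *WASF3*, *SPOCK3*, *ARAP3* and *AC093515.1* the choice itself favoured a WT level above the clones, as given above. The counts of the 9 genes that follow therefore describe position only. In 11H1, 9 of 9 genes were lower than WT past the threshold, where 32.8% of all 16675 genes tested were lower and 64.6% changed in either direction. In 14B5, 7 of the 9 were lower, where 28.7% of 16537 genes were lower, and 1 was higher, where 24.9% were higher and 53.5% changed in either direction. The remaining gene, *AC005307.1*, did not pass the test in 14B5. All 11H1 libraries lay below all WT libraries for the 9 genes, as for 35.3% of genes tested. All 14B5 libraries lay below WT for 7 of the 9 (31.1% of genes tested) and above it for 1 (29.8%). Between the clones 63.7% of 16352 genes were past the threshold. The median log2FC of all genes tested was −0.0066 in 11H1, −0.0137 in 14B5 and −0.0044 between the clones. In the clone of near loss the mean level was 0.182% to 5.68% of WT. In bulk RNA, fewer cells with the transcript and less of it per cell cannot be told apart.

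**Figure D1:**
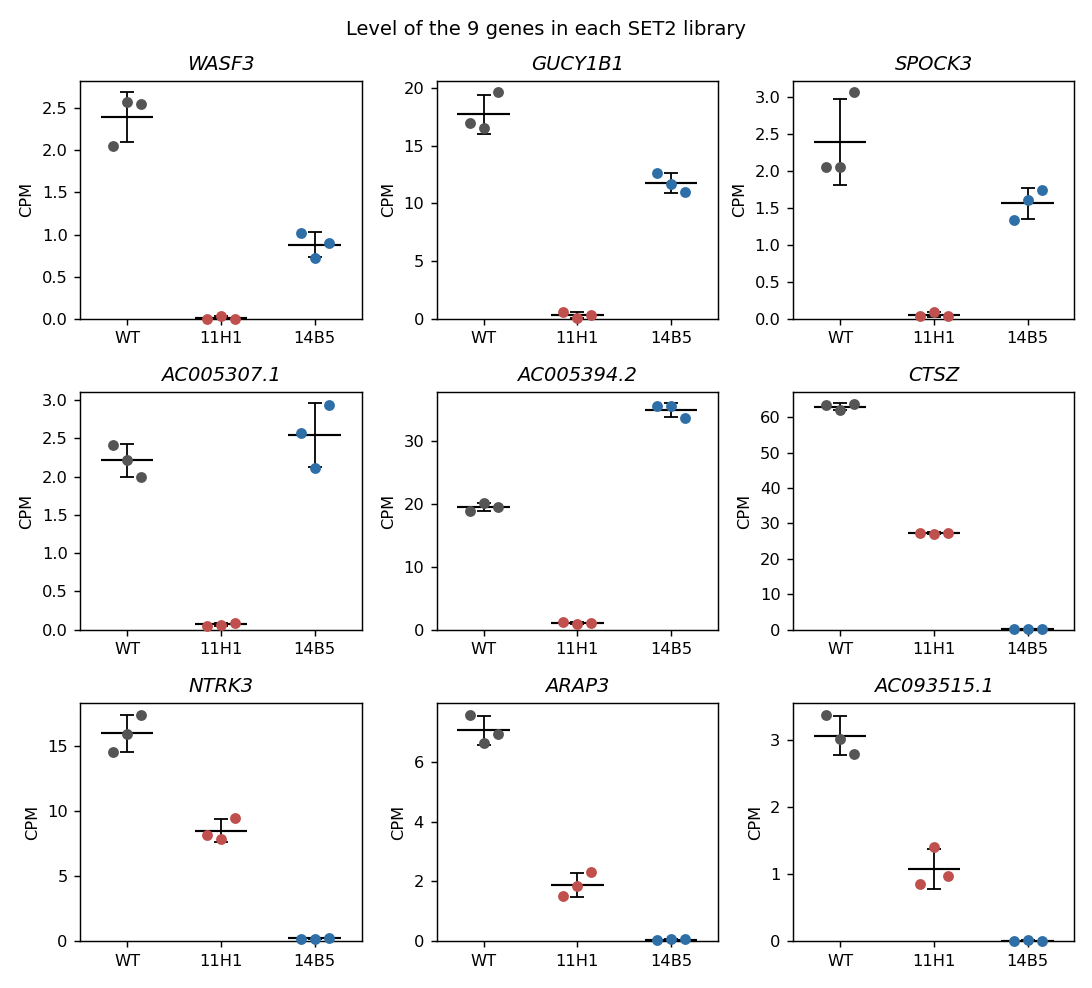
CPM of each of the 9 genes (vertical axis, linear and starting at 0) in the 3 libraries of WT, 11H1 and 14B5; points are libraries, horizontal bars are means and error bars are SD. The first 5 panels have 11H1 near 0 and the last 4 have 14B5 near 0; only *AC005394.2* has the other clone above every WT library.

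*WASF3* RNA was all but undetected in 11H1 and reduced in 14B5. Its level was 2.05, 2.58 and 2.55 CPM in WT libraries 1 to 3, 1.02, 0.719 and 0.905 CPM in 14B5, and 0, 0.0304 and 0 CPM in 11H1. The 11H1 value rested on 1 count in 3 libraries, which puts WT 287 times higher with a 95% counting interval of 51.1 to 11356. None of the 3 groups overlapped another. The fitted log2FC against WT was −7.73 in 11H1 (standard error (SE) 0.452, adjusted p = 4.14e-08, edgeR) and −1.47 in 14B5 (SE 0.175, adjusted p = 6.42e-05), which left 14B5 at 36.7% of WT. With so few counts the 11H1 value moves with single libraries. It was −7.03 without 11H1 library 1, and without library 2 no count was left, so that WT was at least 69.5-fold higher, taking 3 counts over both remaining libraries as the floor. It was −7.00 in limma-voom.

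*GUCY1B1* was well expressed in WT and in 14B5 and low in 11H1, where its libraries spread widely. It was at 17.0, 16.5 and 19.6 CPM in WT, while 14B5 stood at 12.6, 11.7 and 11.0 CPM and 11H1 at 0.568, 0.0609 and 0.304 CPM, from 31, 2 and 10 counts. The highest 11H1 library was still far below the lowest of 14B5, and all of 14B5 lay below WT. Against WT the log2FC was −5.62 in 11H1 (SE 0.244, adjusted p = 3.72e-09, edgeR) and −0.61 in 14B5 (SE 0.0847, adjusted p = 1.91e-04). WT was 49.3 times higher than 11H1 (95% counting interval 36.5 to 68.2). Without 11H1 library 1, which held most of these counts, the log2FC was −6.57 (adjusted p = 8.58e-08, edgeR).

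*SPOCK3* followed the same order at a lower count. Its level was 2.05, 2.05 and 3.06 CPM in WT, 1.33, 1.61 and 1.74 CPM in 14B5, and 0.0367, 0.0913 and 0.0304 CPM in 11H1, from 6 counts in all. Library 3 of WT stood above the other WT libraries, and all 14B5 libraries stood below all of WT. The log2FC against WT was −5.48 in 11H1 (SE 0.370, adjusted p = 1.35e-07, edgeR), a ratio of 47.2 (95% counting interval 21.4 to 129.6). In 14B5 it was −0.62 (SE 0.187, adjusted p = 0.0187, edgeR). That smaller difference was no longer past the threshold without WT library 3 (−0.39, adjusted p = 0.0727, edgeR) or without 14B5 library 1 (−0.51, adjusted p = 0.0776).

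The pair of lncRNAs on chromosome 19 behaved differently from the other 7 genes in 14B5, where neither was reduced. *AC005307.1* was at 2.42, 2.22 and 1.99 CPM in WT, while 14B5 stood at 2.57, 2.11 and 2.94 CPM and 11H1 at 0.0550, 0.0609 and 0.0912 CPM. WT and 14B5 overlapped (log2FC 0.18, SE 0.154, adjusted p = 0.357, edgeR), while 11H1 held 8 counts in all and lay at a log2FC of −4.99 (SE 0.284, adjusted p = 3.30e-08). *AC005394.2* was at 18.9, 20.1 and 19.5 CPM in WT, while 14B5 stood at 35.5, 35.6 and 33.6 CPM and 11H1 at 1.28, 0.913 and 1.13 CPM. It was the gene of the 9 that moved in opposite directions, down in 11H1 (log2FC −4.09, SE 0.110, adjusted p = 9.28e-11, edgeR) and up in 14B5 to 179% of WT (0.82, SE 0.0526, adjusted p = 7.61e-07).

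The loss in 11H1 on chromosome 19 took in the lncRNAs around this pair. *AC005394.2* overlaps *AC005381.1* and *AC005394.1* on its own strand and *AC079466.1* on the other, and its expected counts were not whole numbers. Those of *AC005381.1* were not whole either (1194.36 over the 9 libraries), so the split of reads between these genes is uncertain, while the totals of *AC079466.1* (143008) and *AC005394.1* (238) were whole. Whether strand was used in counting is not given in the sources used here. *AC079466.1*, the best covered of them, was at 557 ± 21.4 CPM (SD, n = 3) in WT, 20.5 ± 1.75 CPM in 11H1 and 394 ± 7.96 CPM in 14B5. It therefore fell in both clones, by a log2FC of −4.75 (adjusted p = 2.35e-12, edgeR) and −0.51 (adjusted p = 1.13e-05), with −4.25 between the clones (adjusted p = 5.42e-13). *AC005381.1* had a log2FC of −3.44 in 11H1 (adjusted p = 4.04e-08, edgeR) and 0.79 in 14B5 (adjusted p = 8.09e-04). *AC005394.1* had one of −3.31 (adjusted p = 2.56e-04, edgeR) and 1.65 (adjusted p = 2.33e-04), at 0.359 CPM in WT. The flanking genes named by the same rule changed less. *UQCRFS1*, a subunit of respiratory complex III that lies 477641 bases from *AC005394.2*, was at −0.53 in 11H1 (adjusted p = 3.10e-06, edgeR) and −0.12 in 14B5 (adjusted p = 0.0601). *AC006504.5*, 499620 bases from *AC005307.1* on the other side, was at −0.36 (adjusted p = 1.93e-04, edgeR) and −0.31 (adjusted p = 0.00108). Further out on that side, 657634 bases away, the low lncRNA *AC006504.1* (0.653 CPM in WT), named after its values were seen, was higher in 11H1 (1.83, adjusted p = 1.05e-05, edgeR) and at −0.06 in 14B5 (adjusted p = 0.837), with 1.87 between the clones (adjusted p = 6.30e-06).

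**Figure D2:**
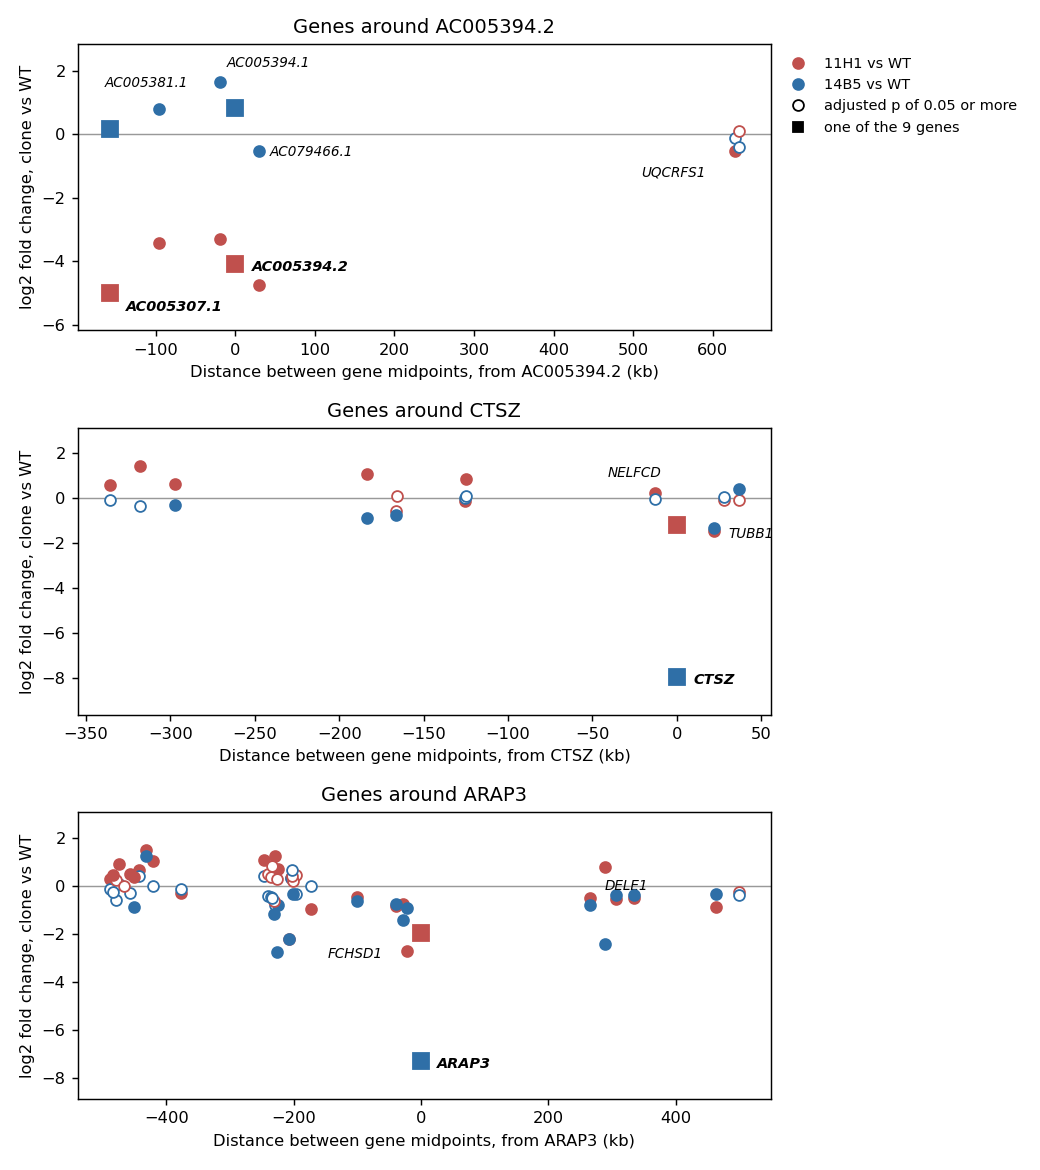
Log2 fold change of each clone against WT (vertical axis) by distance between gene midpoints in kb (horizontal axis), for tested genes within 500000 bases of *AC005394.2*, *CTSZ* and *ARAP3*; squares are genes of the 9, circles their neighbours, and open circles did not pass the threshold. Around *AC005394.2* the 11H1 values of *AC005307.1* and 3 further lncRNAs lie at −3.31 or below, whereas around *CTSZ* the 14B5 value of *CTSZ* (−7.96) stands alone.

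*CTSZ* had the most counts of the 9 genes. It was at 63.3, 62.0 and 63.7 CPM in WT, while 11H1 stood at 27.4, 26.9 and 27.4 CPM and 14B5 at 0.248, 0.284 and 0.226 CPM. The 3 groups were far apart and the libraries within each were close. The log2FC against WT was −7.96 in 14B5 (SE 0.0853, adjusted p = 1.38e-11, edgeR), from 41 counts, a ratio of 248 (95% counting interval 183 to 346). In 11H1 it was −1.20 (SE 0.0464, adjusted p = 1.58e-09, edgeR), or 43.3% of WT. *NELFCD*, which encodes a subunit of the negative elongation factor, lies on the other strand and ends 52 bases from the 3′ end of *CTSZ*. *NELFCD* was at 107 ± 4.60 CPM (SD, n = 3) in WT, 125 ± 2.84 CPM in 11H1 and 104 ± 6.12 CPM in 14B5. It was higher in 11H1 (log2FC 0.24, adjusted p = 9.76e-04, edgeR) and was at −0.05 in 14B5 (adjusted p = 0.456). *TUBB1*, the platelet beta-tubulin gene 12007 bases away on the side of the CG-rich *CTSZ* window shown above, was lower in both clones, at −1.47 in 11H1 (adjusted p = 6.59e-08, edgeR) and −1.33 in 14B5 (adjusted p = 2.00e-06), with −0.16 between the clones (SE 0.101, adjusted p = 0.181).

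*NTRK3* was at 14.5, 15.95 and 17.4 CPM in WT, while 11H1 stood at 8.18, 7.82 and 9.46 CPM and 14B5 at 0.135, 0.184 and 0.244 CPM. No library of a group reached those of the next. It stood at 53.1% of WT in 11H1 (log2FC −0.91, SE 0.0922, adjusted p = 4.11e-06, edgeR) and at a log2FC of −6.38 in 14B5 (SE 0.158, adjusted p = 1.47e-09). The antisense gene *NTRK3-AS1* was listed at 0 in every library, as were *WASF3-AS1* and *AL159978.1*, which overlap *WASF3*.

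*ARAP3* was lower in both clones, at 7.58, 6.62 and 6.95 CPM in WT, while 11H1 stood at 1.504, 1.83 and 2.31 CPM and 14B5 at 0.0226, 0.0502 and 0.0522 CPM. Its 14B5 libraries held 7 counts in all. The log2FC was −7.28 in 14B5 (SE 0.207, adjusted p = 3.71e-09, edgeR), a ratio of 163 (95% counting interval 78.8 to 407), and −1.93 in 11H1 (SE 0.143, adjusted p = 2.85e-07). The adjacent gene *FCHSD1*, which encodes an F-BAR protein and lies 1982 bases beyond the 3′ end of *ARAP3*, had the opposite order of the clones. It fell from 17.3 ± 1.10 CPM (SD, n = 3) in WT to 2.64 ± 0.324 CPM in 11H1 and 9.25 ± 1.09 CPM in 14B5, and 11H1 was below 14B5 (log2FC −1.79, adjusted p = 1.98e-07, edgeR).

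*AC093515.1* was at 3.38, 3.02 and 2.79 CPM in WT, while 11H1 stood at 0.843, 1.40 and 0.973 CPM and 14B5 at 0, 0.0167 and 0 CPM, where 1 count was found in 3 libraries. WT was 497 times higher than 14B5, with a 95% counting interval of 88.8 to 19694. The fitted log2FC was −8.48 in 14B5 (SE 0.374, adjusted p = 5.60e-08, edgeR) and −1.54 in 11H1 (SE 0.187, adjusted p = 1.82e-05), at 35.0% of WT. The 14B5 value was −7.85 in limma-voom. Without 14B5 library 2 no count was left and WT was at least 104-fold higher, with 3 counts over the remaining libraries as the floor. No gene within 500000 bases of *AC093515.1* or of *SPOCK3* was expressed enough to be tested.

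**Figure D3:**
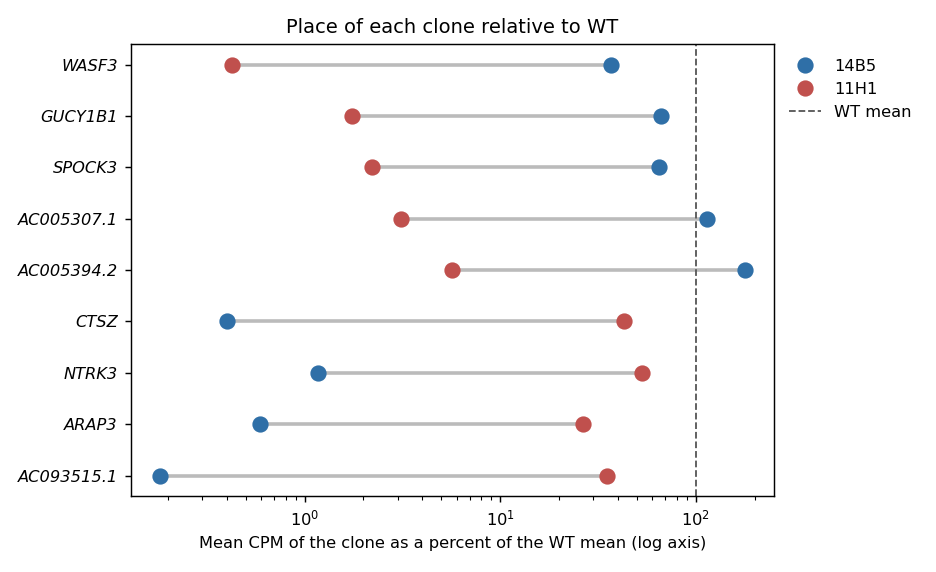
Mean CPM of 11H1 and 14B5 as a percent of the WT mean for each of the 9 genes (horizontal log axis; dashed line, WT mean at 100%). The clone of near loss lies between 0.182% and 5.68%; the other clone lies between 26.7% (*ARAP3*) and 66.4% (*GUCY1B1*) for 7 genes, and at 115% and 179% for *AC005307.1* and *AC005394.2*.

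Set against all genes, the near losses were few. Of 13686 genes with a WT mean of at least 1 CPM, 102 were below a sixteenth of WT in both clones, 23 in 11H1 alone and 66 in 14B5 alone. The 9 genes made up 5 of the 23 and 4 of the 66. Ranked by mean CPM as a share of the WT mean, lowest first, *GUCY1B1* was 60th and *AC005394.2* 115th in 11H1, and *CTSZ* was 38th and *NTRK3* 69th in 14B5. The other 5 had 0 to 3 counts per library in the clone of near loss, too few to rank.

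Relatives of the protein-coding genes were read from 6 lists written from general knowledge, without the 9 genes themselves. Of 94 list genes tested, 55 were lower (58.5%) and 18 higher (19.1%) in 11H1, against 32.8% and 31.8% of all genes. In 14B5, 47 were lower (50.0%) and 16 higher (17.0%), against 28.7% and 24.9%. Between the clones 32 of 90 were lower in 11H1 (35.6%) and 26 higher (28.9%), close to the 32.1% and 31.6% of all genes. The lists were chosen with results for the 9 genes known, so these shares are a description.

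In the nitric oxide and cGMP list, 8 of 12 genes (66.7%) were lower and 1 higher in each clone, against 32.8% of all genes lower in 11H1 and 28.7% in 14B5, with a median log2FC of −0.67 in 11H1 and −0.56 in 14B5. The kinases that cGMP activates fell in both clones. *PRKG1* was at 9.01, 9.18 and 10.7 CPM in WT, while 11H1 stood at 0.147, 0.152 and 0.0608 CPM and 14B5 at 0.113, 0.0334 and 0.122 CPM (log2FC −6.23, adjusted p = 3.97e-10, and −6.77, adjusted p = 9.86e-09, edgeR). *PRKG2* was at −3.73 (adjusted p = 1.40e-06, edgeR) and −4.98 (adjusted p = 4.74e-06). *PDE5A*, which degrades cGMP, was lower in both clones and higher in 11H1 than in 14B5 (log2FC 1.87, adjusted p = 7.00e-04, edgeR). *NOS3*, the endothelial nitric oxide synthase, was lower in both (−1.57, adjusted p = 6.32e-05, and −1.21, adjusted p = 1.17e-04, edgeR). The alpha subunit that pairs with *GUCY1B1*, *GUCY1A1*, had at most 0.189 CPM in any library and was not tested.

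Of 25 genes of the WAVE and Arp2/3 list, 15 were lower (60%, against 32.8% of all genes) and 4 higher in 11H1. In 14B5, 9 were lower (36%, against 28.7%) and 4 higher. Neither paralog of *WASF3* was lower past the threshold in 11H1 or 14B5. *WASF1* was at 68.9 ± 5.45 CPM (SD, n = 3) in WT and 90.9 ± 1.81 CPM in 11H1, higher by a log2FC of 0.41 (adjusted p = 5.54e-05, edgeR), and at 68.7 ± 5.12 CPM in 14B5 (−0.02, adjusted p = 0.819). *WASF2* was at 0.11 in 11H1 (SE 0.0633, adjusted p = 0.134, edgeR) and 0.06 in 14B5 (SE 0.0697, adjusted p = 0.489). *ABI3*, an adaptor of the WAVE complex, was lower in both clones (−1.27, adjusted p = 0.00218, and −1.70, adjusted p = 8.19e-04, edgeR).

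Of 10 tested genes of the SPARC and metalloproteinase list, 9 (90%) were lower in each clone, against 32.8% and 28.7% of all genes, and 1 was higher in 11H1. *SPOCK2*, the paralog of *SPOCK3*, had the reverse order of the clones. It was at 24.9, 24.4 and 23.5 CPM in WT, 13.0, 12.5 and 13.3 CPM in 11H1 and 4.65, 5.18 and 6.04 CPM in 14B5, and 11H1 was above 14B5 (log2FC 1.29, adjusted p = 2.92e-07, edgeR). *MMP2*, a gelatinase, had that order too, at −1.83 in 11H1 (adjusted p = 5.36e-07, edgeR), −3.55 in 14B5 (adjusted p = 3.23e-08) and 1.69 between them (adjusted p = 2.73e-05). *FSTL1* and the membrane protease *MMP16* were lower in both. *SPOCK1* was not tested, at no more than 0.0610 CPM in any library.

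Among 19 genes of the ARF GTPase list, 10 were lower (52.6%, against 32.8% of all genes) and 4 higher (21.1%, against 31.8%) in 11H1. In 14B5, 9 were lower (47.4%, against 28.7%) and 5 higher (26.3%, against 24.9%). *PIK3R5*, a regulatory subunit of PI3-kinase gamma, shared the order of *ARAP3*. Its level was 6.18, 6.46 and 6.10 CPM in WT, 3.30, 3.32 and 4.17 CPM in 11H1 and 0.406, 0.619 and 0.365 CPM in 14B5, with 2.94 between the clones (adjusted p = 3.54e-07, edgeR). *ARAP1* was higher in 11H1 (0.22, adjusted p = 0.00226, edgeR) and lower in 14B5 (−0.38, adjusted p = 4.50e-04), and the GTPase-activating protein *ACAP3* likewise (0.71, adjusted p = 8.29e-06, and −0.35, adjusted p = 0.00976). *ARAP2* was low in WT, at 0.517 ± 0.0460 CPM (SD, n = 3), and lower in both clones (−2.35, adjusted p = 4.41e-04, and −5.91, adjusted p = 1.73e-05, edgeR).

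Of 15 cathepsins and cystatins, 10 were lower (66.7%, against 32.8% of all genes) and 1 higher in 11H1, and 9 were lower (60%, against 28.7%) and 2 higher in 14B5, with median log2FC values of −0.55 and −0.25. The lysosomal proteases *CTSB* and *CTSL* were lower in both clones (*CTSB* −0.58, adjusted p = 3.46e-07, and −0.20, adjusted p = 0.00365; *CTSL* −0.67, adjusted p = 1.88e-07, and −0.98, adjusted p = 7.91e-08, edgeR), as were *CTSS* and *CTSO*. *CTSD* was at −0.06 in 11H1 (SE 0.0521, adjusted p = 0.362, edgeR) and −0.02 in 14B5 (SE 0.0507, adjusted p = 0.817). The inhibitor *CST7* was lower in 11H1 (−1.0, adjusted p = 3.69e-07, edgeR) and was at 0.04 in 14B5 (adjusted p = 0.616), a difference of −1.05 between the clones (adjusted p = 1.55e-07).

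The neurotrophin list was the one of the 6 with more rises than falls, 7 against 3 of 13 in 11H1 (53.8% and 23.1%, where all genes had 31.8% and 32.8%). In 14B5 it was 4 against 3 (30.8% and 23.1%), near the 24.9% and 28.7% of all genes. The sorting receptor *SORL1* was lower in both clones (−2.27, adjusted p = 8.05e-06, and −2.79, adjusted p = 7.64e-07, edgeR). The phosphatase *PTPRS* was lower chiefly in 11H1 (−1.92, adjusted p = 8.38e-08, against −0.38, adjusted p = 0.0157, with −1.56 between the clones, adjusted p = 3.10e-06, edgeR). *NTRK2* was at 0 in every library.

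**Figure D4:**
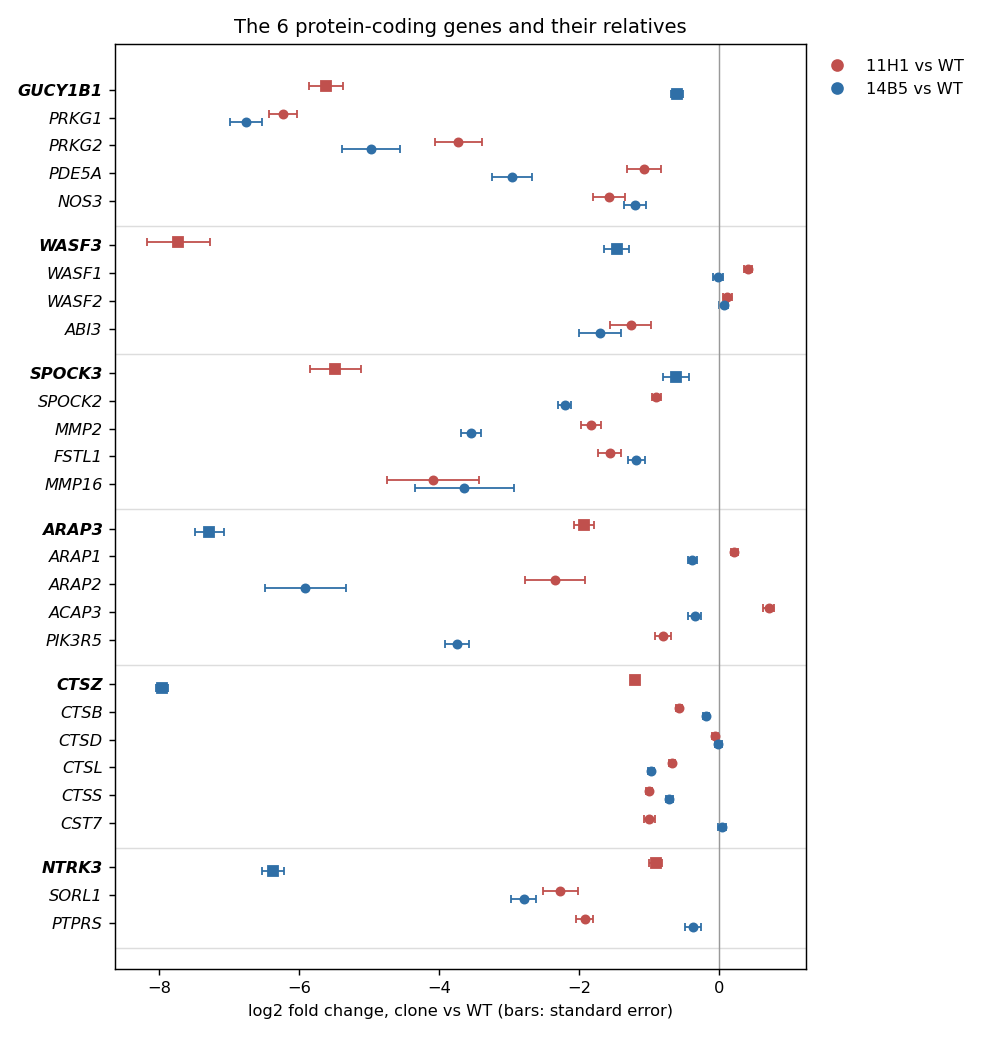
Log2 fold change against WT in 11H1 and 14B5 (horizontal axis; bars, SE) for the 6 protein-coding genes (squares, bold names) and relatives from the 6 lists (circles). *PRKG1* (−6.23 and −6.77) is low in both clones while *GUCY1B1* (−5.62 and −0.61) is low chiefly in 11H1, and *WASF1*, *WASF2* and *CTSD* lie near 0.

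Over all neighbours within 500000 bases of any of the 9 genes, the shares past the threshold in 11H1 were close to those of all genes. Of 65 neighbours tested, 21 were higher (32.3%, against 31.8% of all genes) and 23 lower (35.4%). In 14B5, 7 of 63 were higher (11.1%) and 24 lower (38.1%), against 24.9% and 28.7% of all genes. Between the clones 28 of 62 were higher in 11H1 (45.2%) and 16 lower (25.8%), against 31.6% and 32.1% of all genes. Most of these neighbours lie near *ARAP3*, with 34 of the 62, of which 18 were higher in 11H1 (52.9%) and 6 lower (17.6%). Many of the 34 are protocadherin genes of the same region, several of them below 1 CPM. The annotated bodies of the gamma protocadherins overlap, so reads may be shared and these genes are not independent. The shares of neighbours between the clones therefore rest largely on this region. Around *GUCY1B1* the nearest tested genes on either side were *TDO2* and *MAP9*, and nearer genes with too few counts for a test were passed over. *TDO2*, the tryptophan dioxygenase gene, was at −3.31 in 11H1 (adjusted p = 1.53e-04, edgeR) and −2.44 in 14B5 (adjusted p = 0.00391), at 0.276 CPM in WT. *MAP9*, a microtubule-associated protein gene, was at 1.11 (adjusted p = 9.37e-04, edgeR) and 0.57 (adjusted p = 0.0503). Around *WASF3* the kinase gene *CDK8* was at −0.33 and −0.16 (adjusted p = 1.12e-04 and 0.0402, edgeR) and the deubiquitinase gene *USP12* at 0.33 and 0.45 (adjusted p = 1.61e-04 and 3.66e-04).

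The genes with the most similar profile were found by the root mean square (RMS) difference of centred log2 CPM over the 9 libraries. These fall in 3 close groups, so the measure mostly reflects 3 group means. A prior count of 2 was added before the log, which shrinks differences among genes with few counts. Closeness between genes near 0 in a clone may therefore partly reflect the floor. *ARAP3* and *AC093515.1* were the closest to each other (0.310), and *NTRK3* was second for both (0.448 each). *NTRK3* was closest to *CDH5* (0.402), which encodes the endothelial VE-cadherin. *SPOCK3* was closest to the chromosome 19 lncRNA *AC079466.1* (0.263), then to *BCL6B* (0.427), and *WASF3* was closest to *SPOCK3* (0.459), then to *SEC14L2* (0.468). *AC005307.1* and *AC005394.2* were closest to each other (0.349), followed by *AC079466.1* (0.360) and *AC005381.1* (0.466). The matches of *GUCY1B1* were more distant, with *AC079466.1* at 0.848 and *SDK2* at 0.894, and *CTSZ* was nearest to *NTRK3* (0.727) and *MEG3* (0.764). *MEG3* was higher than WT in 11H1 (log2FC 0.44, adjusted p = 1.66e-04, edgeR) where *CTSZ* was lower.

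Other features of the libraries moved with the clones. Library totals ran from 32347779 to 60272245 expected counts, so that a count of 0 allowed between 0.0502 and 0.0913 CPM (3 counts), for counting error only. Mitochondrial genes took 3.54% to 6.03% of counts in WT, 7.23% to 7.39% in 11H1 and 3.30% to 3.92% in 14B5. The 10 megakaryocyte markers summed to 2113 to 2120 CPM in WT, 1705 to 1793 CPM in 11H1 and 1727 to 1779 CPM in 14B5, with *PF4* at 0 in both clones. Of these, 7 (70%) were lower in each clone, against 32.8% and 28.7% of all genes, with 1 higher in 11H1 and 2 in 14B5. All 10 were detected in WT. The 6 erythroid markers summed to 1777 to 2073 CPM in WT, 2213 to 2422 CPM in 11H1 and 1945 to 2272 CPM in 14B5. The 13 markers of T, B, fibroblast, endothelial, epithelial, neuronal and granulocytic cells summed to 12.3 to 13.8 CPM in WT, 10.1 to 13.2 CPM in 11H1 and 2.69 to 3.20 CPM in 14B5. Within that list *CDH5* made up most of the WT sum and fell from 8.63 ± 1.04 CPM (SD, n = 3) in WT to 3.67 ± 0.481 CPM in 11H1 and 0.131 ± 0.0624 CPM in 14B5, the order of *NTRK3* and *ARAP3*. Others rose, namely *CD3D*, *COL1A1* and *SYP* in 11H1 (3 of 6 tested higher and 3 lower, edgeR) and *ELANE* in 14B5 (1 of 7 higher and 4 lower). *MS4A1* and *SNAP25* were at 0 in both clones and *RBFOX3* in WT and 14B5. The part of these markers and of the mitochondrial share in the values of the 9 genes was not tested.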

How the data were processed

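RNA-seq libraries of SET2 WT, 11H1 and 14B5 (n = 3 each) were compared. Gene values are expected counts from RSEM, as the authors deposited them, not normalized for depth or gene length. The submitters' processing notes name STAR 2.7.9a, Picard, RSEM and GRCh38; the annotation release and the RSEM version are not given in the sources used here. The library kit in the labels is not the stranded one of the paper's methods. The paper counts fewer KO libraries than the 6 deposited, and all 6 were used. The table also held 92 spike-in entries, at 0 throughout, which were left out.

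Counts were rounded and analysed with edgeR 4.0.16 in R 4.3.3 (TMM, filterByExpr, quasi-likelihood F test, 3 libraries against 3, Benjamini-Hochberg adjustment, threshold 0.05). SE is the log2FC divided by the root of F. CPM were taken on TMM-scaled library sizes, and intervals of ratios are exact 95% intervals for counting error only. Positions come from GENCODE v29, which placed 58587 genes (96.6%) by identifier, and windows before transcription starts from RefSeq (GRCh38.p14). The 9 genes and the lists were chosen with earlier results of these data known. Relatives were named if past the threshold with a log2FC beyond 1 in any comparison (up to 4 per list). Also named were the nearest paralogs or partners, the nearest tested neighbours, the 2 most similar profiles and the genes next outside the choice. A gene that this rule covers is left out of the text. Alternatives were DESeq2 1.42.0 (size factors and Wald test), limma-voom (limma 3.58.1), other filters, CPM on raw totals, a replicate block, other windows, Pearson correlation for similarity, and each library left out. In simulated counts for 11H1 versus WT (16425 genes, 4-fold changes) 97.5% of the 200 changed genes were recovered, and 2.99% of calls were false. Of those 200 genes, 196 were tested. No library was a copy of another: chi-square per gene between libraries of a group was 4.06 to 36.9, where sampling noise alone gives 1.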

Additional observations from a re-analysis of the deposited data

Results flagged for a closer look

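Among the named relatives and nearest neighbours of the 9 genes, 12 differed between the clones by a log2FC beyond 1 (edgeR, 11H1 versus 14B5). Of all genes tested there, 63.7% were past the threshold at any size of change. Relatives were partly named for a log2FC beyond 1, so the count is a description. *AC005381.1*, *AC005394.1* and *AC079466.1* overlap *AC005394.2*, which was chosen on this difference, so their tests are not independent of that choice. Lower in 11H1 were *AC005381.1* (log2FC −4.24, adjusted p = 1.77e-08), *AC005394.1* (−4.98, adjusted p = 1.60e-06), *AC079466.1* (−4.25, adjusted p = 5.42e-13), *FCHSD1* (−1.79, adjusted p = 1.98e-07), *PTPRS* (−1.56, adjusted p = 3.10e-06) and *CST7* (−1.05, adjusted p = 1.55e-07). Higher in 11H1 were *PIK3R5* (2.94, adjusted p = 3.54e-07, edgeR), *PDE5A* (1.87, adjusted p = 7.00e-04), *MMP2* (1.69, adjusted p = 2.73e-05), *SPOCK2* (1.29, adjusted p = 2.92e-07), *ACAP3* (1.04, adjusted p = 2.74e-07) and the aspartic protease gene *CTSE* (2.18, adjusted p = 0.00184), the last at 0.266 CPM in 11H1. *AC005394.2* lay below every WT library in 11H1 and above every WT library in 14B5, with −4.93 between the clones; this difference chose the gene and was not tested.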

How the results depend on the processing

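Against WT, the 9 genes gave 225 values under the alternatives that kept their direction and side of the threshold, and 2 that lost the call, both for *SPOCK3* in 14B5 (without WT replicate 3, and without 14B5 replicate 1). No value reversed. Requiring 10 counts in every library left 5 of the 9 genes to test in 11H1 (5 past the threshold) and 6 in 14B5 (5 past it). Most genes that were almost lost in a clone fail that filter there, while *AC005394.2* in 11H1 and *CTSZ* in 14B5 pass it. With each library left out, 9 of the 9 genes were past the threshold in 11H1 and 7 to 8 in 14B5, against 9685 to 11091 and 7597 to 9040 of all genes (9193 to 10204 between the clones). Family genes past it numbered 70 to 79, 57 to 64 and 52 to 60, and neighbours 38 to 44, 27 to 31 and 37 to 44, in 11H1, 14B5 and between the clones. Neighbours within 500000 bases numbered 44, 31 and 44 past the threshold, 20, 19 and 19 within 200000 bases, and 79, 57 and 68 within 1000000 bases, as fewer or more genes were taken in. Ranking similar profiles by Pearson correlation shared 0 of the 18 genes named by RMS difference, since it ignores the size of a change. The level of *CTSZ* in 11H1 was 27.6 CPM on raw totals and 27.2 CPM with TMM.

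Replicate numbers did not pair the libraries: deviations of same-numbered libraries correlated between −0.15 and 0.06. With the replicate number as a block, 10710 genes were past the threshold in 11H1, 7529 in 14B5 and 10099 between the clones, and no call of the 9 genes against WT changed. Depth limits the low ends: values of 0 to 3 counts per library in the clone of near loss cannot be ranked among themselves.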
